A study of Mus musculus with 9 samples.

Results

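The genes described here encode 10 enzymes or enzyme subunits that break down the branched-chain amino acids leucine, isoleucine and valine in mitochondria: Bcat2, Bckdha, Bckdhb, Dbt, Ivd, Mccc1, Mccc2, Hibadh, Pcca and Pccb. Each was taken from the probe sets annotated with that single gene symbol. All 10 were measured, each by 1 probe set, out of 14860 genes with a probe set of their own. Signals came from perigonadal white adipose tissue (gonadal fat) of mice aged 4 months, hybridised to 9 arrays. The 3 groups of 3 arrays were wild type (wt), homozygous G609G/G609G and homozygous LCS/LCS mice. G609G is known as a point mutation of Lmna, which encodes the nuclear lamins A and C; it makes the truncated lamin A called progerin and models a premature ageing syndrome. LCS is known as a Lmna allele from which lamin C but no lamin A is made, although the labels do not spell the name out. The labels name no treatment and no sex, and whether each array stands for 1 animal is not stated.

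Branched-chain amino acids first lose their amino group to a transaminase, and the resulting ketoacids are then oxidised by the branched-chain ketoacid dehydrogenase complex in an irreversible step shared by all 3 amino acids. The pathways part after that step: leucine is carried to acetyl-CoA and acetoacetate through a biotin-dependent carboxylase, while valine and isoleucine yield propionyl-CoA, which a further biotin-dependent carboxylase feeds towards the citric acid cycle. Fat cells are known to oxidise these amino acids as they differentiate and to use their carbon for fatty acid synthesis, and skeletal muscle is known for high activity of the mitochondrial transaminase.

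In G609G/G609G fat the enzymes of the pathway did not move as a block. The transaminase Bcat2 and all 3 measured dehydrogenase subunits, Bckdha, Bckdhb and Dbt, were higher than in wt, by 0.23 to 0.82 on the log2 scale. The carboxylase subunits Mccc1, Pcca and Pccb were lower, by 1.13, 1.10 and 0.64. These 7 directions, 4 higher and 3 lower of 10, were called under each of 3 scalings of the arrays. Of all probe sets, 9.16% were called higher and 19.8% lower in this way, so the share of lower members is nearer the background. The members were chosen with earlier results of these data known, so these shares describe them and are no test. Ivd, Mccc2 and Hibadh had no settled direction. In LCS/LCS fat a single member, Pccb, was called, and it was higher than in wt by 0.33. Of all probe sets, 17.2% were called in that comparison and 9.4% were called higher, so this count lies near the background.

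All values are deposited log2 signals, changes carry their standard error (SE), and a gene is called at a limma adjusted p of 0.05 or less over all 23332 probe sets. The p-values rest on the scatter among arrays of a genotype, part of which may be technical, and precision is limited by the number of arrays. The array medians were 6.36 to 6.45 in wt, 5.94 to 6.01 in G609G/G609G and 6.31 to 6.37 in LCS/LCS, so each direction was also checked after quantile normalization and after centring each array on its median. Taken over all probe sets, G609G/G609G differed from wt by a median of -0.23 in the deposited values, 0.02 with quantile normalization and 0.20 with median centring. Of 10 measured white adipocyte markers, 7 were called lower in G609G/G609G than in wt and 1 higher as deposited, beside 43.3% and 9.41% of all probe sets. Under all 3 scalings 5 were lower and 1 higher, beside 19.8% and 9.16% of all probe sets. The summed linear signal of these markers was 52353 to 52597 in wt, 32745 to 33735 in G609G/G609G and 58926 to 59996 in LCS/LCS. All 10 measured skeletal muscle markers were higher in G609G/G609G than in wt, by a median of 6.37, and their summed linear signal was 893 to 985 in wt, 39603 to 41002 in G609G/G609G and 2118 to 2170 in LCS/LCS. No array signal is 0; the dimmest muscle marker mean was 3.92 (Mylpf) in wt and 8.80 (Mb) in G609G/G609G. In bulk tissue, fewer cells of a type and less RNA per cell cannot be told apart, and the part of muscle RNA in the changes below was not tested.

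Against wt, G609G/G609G had 4 members called higher and 5 lower. Over all probe sets 52.7% were called in this comparison, 9.41% higher and 43.3% lower. The 5 lower calls of 10 thus lie near that share, and the 4 higher calls lie above it. The members were chosen with earlier results of these data known, and each was brighter than at least 79.2% of probe sets. That excess of higher calls is therefore a description and not a test. With quantile normalization 6 members were higher and 3 lower, beside 24.8% and 23.8% of all probe sets, and with median centring 7 and 3, beside 41.4% and 21.5%. Called under all 3 scalings were 4 members upwards and 3 downwards, beside 9.16% and 19.8% of all probe sets. The groups did not overlap for 9 of the 10 members, against 58% of all probe sets. The members' median change was -0.14 in the deposited values, 0.24 with quantile normalization and 0.29 with median centring, and their changes ran from -1.13 to 0.82.

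**Figure D1:**
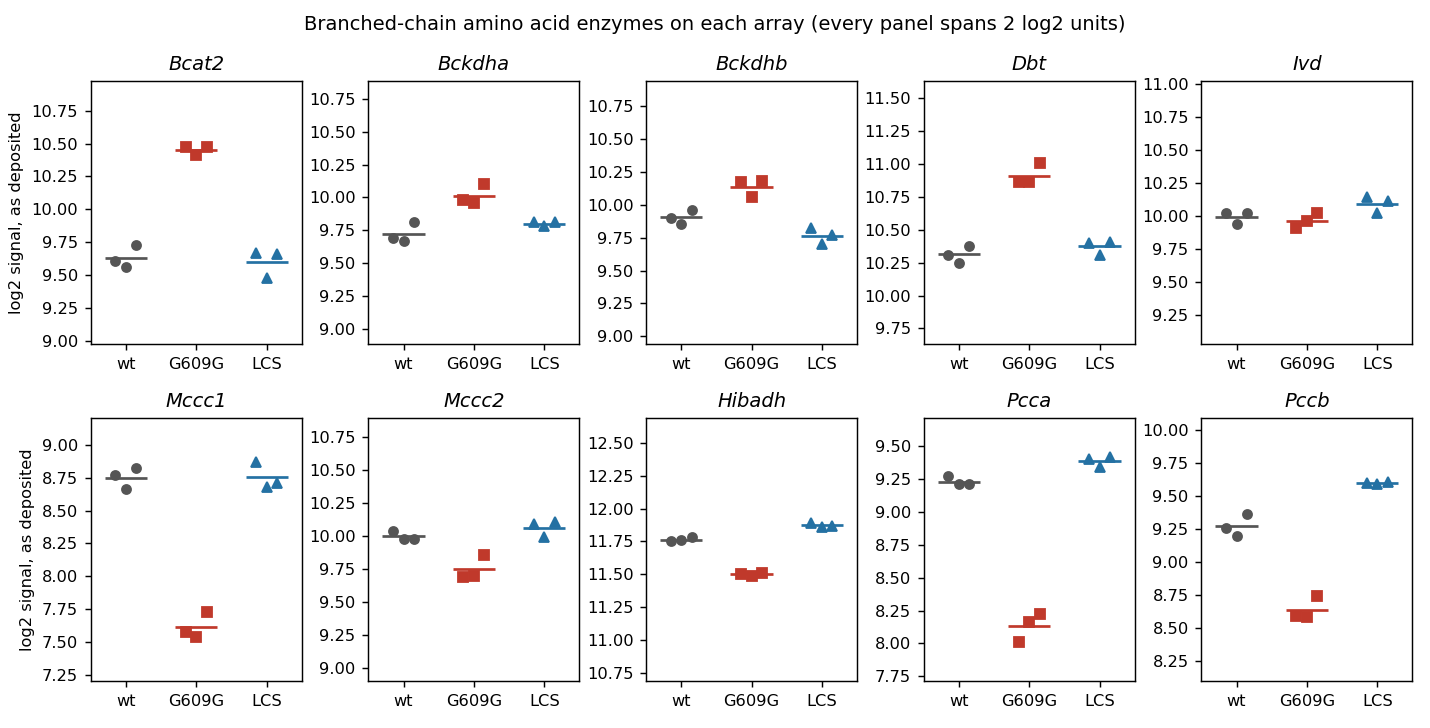
Deposited log2 signal (vertical axis) of each member on the 3 wt (circles), 3 G609G/G609G (squares) and 3 LCS/LCS (triangles) arrays; horizontal bars are group means and every panel spans 2 log2 units. Bcat2 and Dbt of G609G/G609G lie above both other groups, Mccc1, Pcca and Pccb lie below them, and Ivd overlaps with wt.

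The first step was higher in G609G/G609G. Bcat2 (probe set 6960382), the mitochondrial branched-chain aminotransferase, measured 9.61, 9.56 and 9.73 in wt, 10.47, 10.41 and 10.47 in G609G/G609G and 9.67, 9.48 and 9.66 in LCS/LCS. All G609G/G609G arrays lay above every other array, while wt and LCS/LCS overlapped. The means were 9.63 ± 0.09, 10.45 ± 0.03 and 9.60 ± 0.11 (SD, n = 3 arrays). Bcat2 rose 1.76-fold in G609G/G609G against wt (log2 change 0.82, SE 0.07, limma adjusted p = 2.71e-05), and by 1.19 and 1.24 after quantile normalization and median centring. Bcat1, the cytosolic aminotransferase, went the other way: it measured 6.75 ± 0.16 in wt and 5.72 ± 0.17 in G609G/G609G (log2 change -1.03, SE 0.11, adjusted p = 6.93e-05), and the fall was called under all 3 scalings.

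The measured subunits of the ketoacid dehydrogenase complex were also higher, Dbt more than the others. Dbt (probe set 6900707), the transacylase core of the complex, measured 10.31, 10.25 and 10.38 in wt, 10.86, 10.86 and 11.01 in G609G/G609G and 10.40, 10.31 and 10.41 in LCS/LCS. The G609G/G609G arrays again stood above all others. Dbt rose 1.51-fold against wt (log2 change 0.60, SE 0.07, adjusted p = 9.56e-05), and by 0.97 and 1.02 under the other scalings. Bckdha (probe set 6965967), the alpha subunit of the decarboxylase component, measured 9.69, 9.67 and 9.81 in wt, 9.98, 9.96 and 10.10 in G609G/G609G and 9.81, 9.78 and 9.81 in LCS/LCS. Its rise was smaller, 0.29 (SE 0.06, adjusted p = 0.00409), with no overlap between G609G/G609G and wt. Bckdhb (probe set 6990952), the beta subunit, measured 9.90, 9.85 and 9.96 in wt, 10.17, 10.06 and 10.18 in G609G/G609G and 9.82, 9.70 and 9.77 in LCS/LCS. It rose by 0.23 in G609G/G609G (SE 0.06, adjusted p = 0.0114), and here LCS/LCS was the lowest group, below wt on all arrays. Both rises were under 1.5-fold as deposited, and they were 0.67 and 0.71 for Bckdha and 0.60 and 0.66 for Bckdhb under the other scalings.

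Genes that control or complete the complex did not rise with it as deposited. Bckdk, the kinase that inactivates the complex, was 9.24 ± 0.05 in wt and 8.77 ± 0.08 in G609G/G609G (log2 change -0.47, SE 0.06, adjusted p = 0.000261), but the call was lost under both other scalings (-0.05 and -0.04). Ppm1k, the phosphatase that reactivates it, was 7.16 ± 0.12 in wt and 7.33 ± 0.16 in G609G/G609G (adjusted p = 0.199), and was called higher under the other scalings (0.70 and 0.59). Dld, the third component, which the pyruvate and oxoglutarate dehydrogenases share, was 9.35 ± 0.04 and 9.25 ± 0.07 (adjusted p = 0.146), and it too was called higher under the other scalings (0.29 and 0.32). The difference between partners on the same array is free of centring. Relative to Bckdha, Bckdk differed from its wt mean by -0.78, -0.73 and -0.75 on the G609G/G609G arrays and by -0.14, -0.16 and -0.09 on the LCS/LCS arrays, with 0.07, 0.00 and -0.06 on the wt arrays. Dbt relative to Bckdha was 0.29, 0.31 and 0.32 above its wt mean in G609G/G609G, and 0.00, -0.06 and 0.01 from it in LCS/LCS. Such differences show unequal change of the partners and were not tested.

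**Figure D2:**
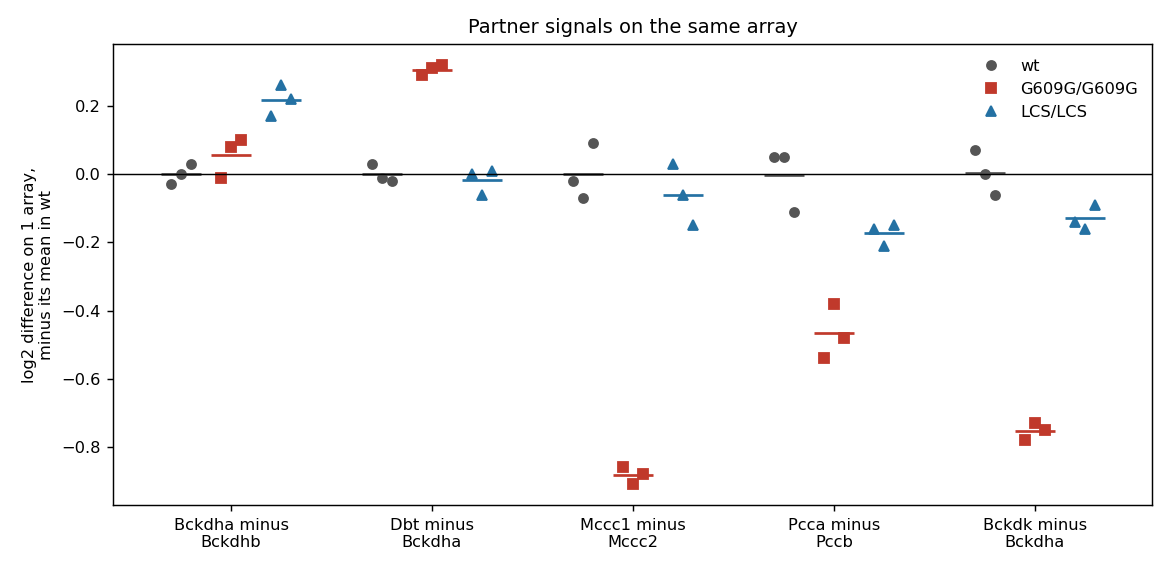
Log2 signal of 1 gene minus that of its partner on the same array, after subtracting the mean of that difference in wt (vertical axis), for 5 pairs; points are arrays and short bars group means. In G609G/G609G, Mccc1 lies 0.88 below Mccc2 and Bckdk 0.76 below Bckdha relative to wt, whereas Bckdha against Bckdhb moved most in LCS/LCS, by 0.22.

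In the leucine arm 1 carboxylase subunit fell, while the direction of its partner depended on the scaling. Mccc1 (probe set 6904264), the biotin-carrying subunit of methylcrotonyl-CoA carboxylase, measured 8.77, 8.66 and 8.82 in wt, 7.58, 7.54 and 7.73 in G609G/G609G and 8.87, 8.68 and 8.71 in LCS/LCS. Every G609G/G609G array lay about 1 log2 unit below the others. Mccc1 fell 2.19-fold against wt (log2 change -1.13, SE 0.08, adjusted p = 7.62e-06), and by 0.64 and 0.71 under the other scalings. Mccc2 (probe set 6815518), the non-biotin subunit of the same enzyme, measured 10.04, 9.98 and 9.98 in wt, 9.69, 9.70 and 9.86 in G609G/G609G and 10.09, 9.99 and 10.11 in LCS/LCS. It was lower by 0.25 as deposited (SE 0.06, adjusted p = 0.0115), yet called higher after quantile normalization (0.14, adjusted p = 0.0353) and median centring (0.17, adjusted p = 0.0297), so its direction is not settled. Relative to Mccc2 on the same array, Mccc1 stood at -0.86, -0.91 and -0.88 from its wt mean in G609G/G609G and at 0.03, -0.06 and -0.15 in LCS/LCS. Ivd (probe set 6880469), the isovaleryl-CoA dehydrogenase that acts just before this carboxylase, measured 10.02, 9.94 and 10.02 in wt, 9.91, 9.96 and 10.02 in G609G/G609G and 10.14, 10.02 and 10.11 in LCS/LCS. Between G609G/G609G and wt the change was -0.03 (95% interval -0.16 to 0.10, adjusted p = 0.693) as deposited, and it was called higher under the other scalings (0.35 and 0.40).

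Both subunits of propionyl-CoA carboxylase fell, the biotin-carrying one more. Pcca (probe set 6822320), that biotin-carrying alpha subunit, measured 9.27, 9.21 and 9.21 in wt, 8.01, 8.16 and 8.22 in G609G/G609G and 9.40, 9.34 and 9.42 in LCS/LCS. The 3 groups were ordered without overlap, G609G/G609G lowest and LCS/LCS highest. Pcca fell 2.14-fold in G609G/G609G against wt (log2 change -1.10, SE 0.06, adjusted p = 2.96e-06), and by 0.66 and 0.67 under the other scalings. Pccb (probe set 6998301), the beta subunit, measured 9.26, 9.20 and 9.36 in wt, 8.59, 8.58 and 8.74 in G609G/G609G and 9.60, 9.59 and 9.61 in LCS/LCS. The same order held without overlap, and the LCS/LCS arrays were the tightest group (SD 0.01). Pccb fell 1.55-fold in G609G/G609G (log2 change -0.64, SE 0.07, adjusted p = 6.44e-05), and by 0.22 and 0.21 under the other scalings. Relative to Pccb on the same array, Pcca stood at -0.54, -0.38 and -0.48 from its wt mean in G609G/G609G and at -0.16, -0.21 and -0.15 in LCS/LCS. Hibadh (probe set 6953624), the 3-hydroxyisobutyrate dehydrogenase of the valine arm, measured 11.75, 11.76 and 11.78 in wt, 11.50, 11.49 and 11.51 in G609G/G609G and 11.89, 11.86 and 11.87 in LCS/LCS. It was lower by 0.26 in G609G/G609G as deposited (SE 0.04, adjusted p = 0.00105) but 0.06 and 0.16 under the other scalings, the latter called higher (adjusted p = 0.0121), so it has no settled direction.

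**Figure D3:**
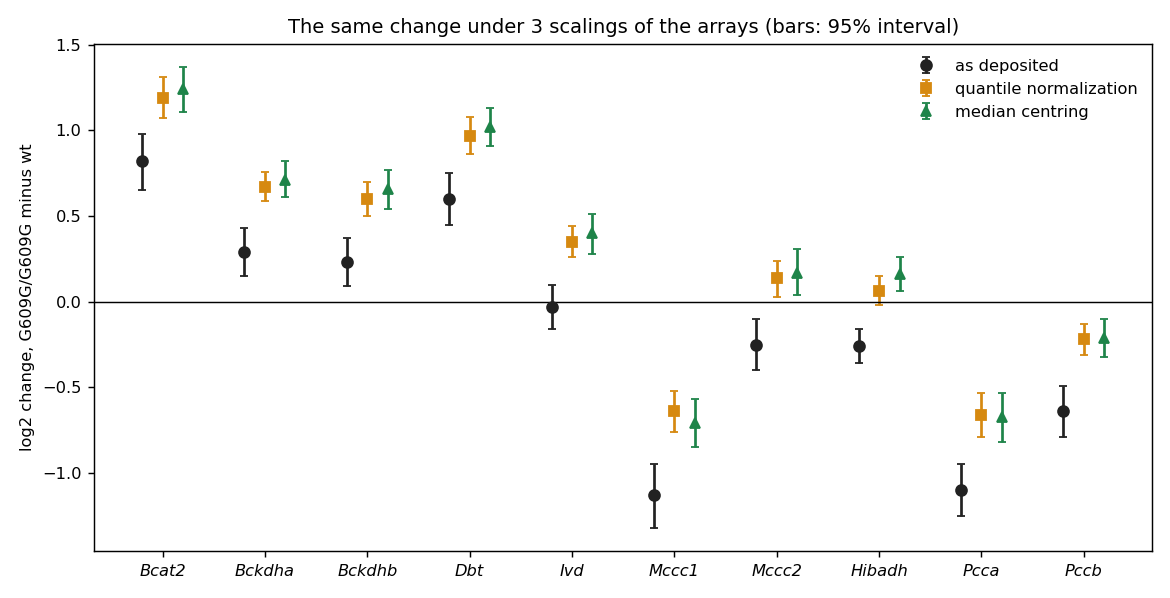
Log2 change of each member in G609G/G609G minus wt (vertical axis) under the deposited, quantile-normalized and median-centred scalings; points are estimates and bars 95% intervals. Bcat2, Bckdha, Bckdhb and Dbt stay above 0 and Mccc1, Pcca and Pccb below 0 under all 3 scalings. The estimates of Ivd, Mccc2 and Hibadh lie below 0 as deposited and above 0 under the other scalings.

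The promoters of the 4 carboxylase genes are shown because 3 of them fell together while the fourth, Mccc2, did not do so under every scaling. The sequences are the 150 bases before the annotated gene in the RefSeq annotation of GRCm38.p6, at chr3:36000695-36000844 (minus strand, Mccc1), chr13:100015640-100015789 (minus strand, Mccc2), chr14:122484215-122484364 (plus strand, Pcca) and chr9:101034941-101035090 (minus strand, Pccb). They are read 5′ to 3′ on the gene's strand. Capitals mark matches on either strand to the CCAAT box (CCAAT or ATTGG), the GC box (GGGCGG or CCGCCC) and the E-box (CACGTG); the NRF1 motif and a nuclear receptor motif (AAGGTCA or TGACCTT) were searched too.
Mccc1: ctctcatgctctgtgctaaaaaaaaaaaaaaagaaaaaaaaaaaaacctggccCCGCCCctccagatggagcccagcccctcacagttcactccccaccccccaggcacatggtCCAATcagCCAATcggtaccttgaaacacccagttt
Mccc2: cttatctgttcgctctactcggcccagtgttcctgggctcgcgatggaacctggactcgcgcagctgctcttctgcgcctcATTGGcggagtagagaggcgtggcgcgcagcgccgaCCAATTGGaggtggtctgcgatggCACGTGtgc
Pcca: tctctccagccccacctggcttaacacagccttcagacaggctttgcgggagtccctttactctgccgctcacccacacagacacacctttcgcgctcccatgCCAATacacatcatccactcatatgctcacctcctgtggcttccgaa
Pccb: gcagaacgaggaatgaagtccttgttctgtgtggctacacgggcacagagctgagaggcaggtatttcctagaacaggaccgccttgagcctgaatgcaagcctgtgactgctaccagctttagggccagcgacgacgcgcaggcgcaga
Mccc1 held 2 CCAAT boxes and 1 GC box, Mccc2 held 3 CCAAT boxes, of which a pair overlap, and 1 E-box, Pcca held 1 CCAAT box, and none of the 5 motifs was found in the Pccb window. Windows of this kind could be cut for 8 of the 10 members, and 6 of these held a CCAAT box, 3 a GC box and 1 an E-box. Among 22802 gene windows of this length, 25.7% held a CCAAT box, 25.7% a GC box and 4.06% an E-box. The NRF1 motif (0.732% of windows) and the nuclear receptor motif (2.42%) were in no member's window. A match is a description of letters and says nothing of binding.

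In LCS/LCS fat the members stayed close to wt. Of the 10, 1 was called higher and 0 lower by limma, beside 17.2% of all probe sets called in this comparison, 9.4% higher and 7.76% lower. With quantile normalization 1 member was higher and 1 lower, beside 11.3% and 9.72% of all probe sets, and with median centring 3 and 0, beside 15.2% and 7.28%. At an unadjusted p of 0.05 or less, Bckdhb (-0.14), Hibadh (0.11) and Pcca (0.16) passed beside Pccb, 4 of 10 members, as did 27.9% of all probe sets. Pccb rose to 9.60 ± 0.01 from 9.27 ± 0.08 in wt (log2 change 0.33, SE 0.07, adjusted p = 0.0103), with all LCS/LCS arrays above all wt arrays, and the rise was called under all 3 scalings (0.28 and 0.38), beside 8.83% of all probe sets called higher under all 3. Called lower under all 3 were 6.82% of probe sets and 0 members. Pcca was 0.16 higher (95% interval 0.01 to 0.31, adjusted p = 0.16) and Hibadh 0.11 higher (0.01 to 0.21, adjusted p = 0.139); both were called higher after median centring only among the scalings. Bckdhb was called lower only after quantile normalization (-0.20, adjusted p = 0.012). For Bcat2 the 95% interval of the change was -0.20 to 0.14, for Dbt -0.09 to 0.21 and for Mccc1 -0.18 to 0.19. The members' median change was 0.07 against 0.02 over all probe sets. The groups did not overlap for 4 members, 3 higher and 1 lower, against 35.9% of all probe sets. On the LCS/LCS arrays 3 of 10 muscle markers were called higher than in wt as deposited and 0 lower, Acta1 by 1.51. Higher calls were 5 with quantile normalization, 6 with median centring and 3 under all 3 scalings. For 6 markers all LCS/LCS arrays lay above all wt arrays. Ckm (-0.03, adjusted p = 0.924) and Mylpf (0.21, adjusted p = 0.119) were among those not called as deposited. Acta1, Ckm and Mylpf are named here outside the naming rule given below.

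**Figure D4:**
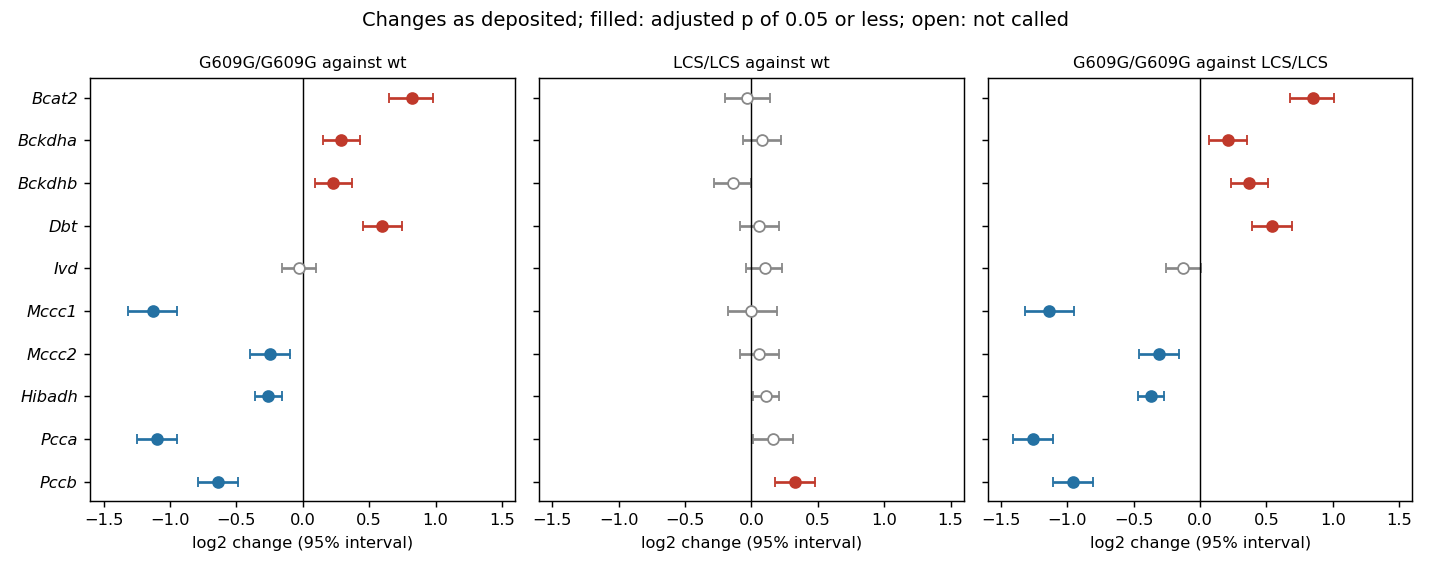
Log2 change of each member (horizontal axis) with its 95% interval in the 3 comparisons, as deposited; filled points are called at an adjusted p of 0.05 or less and open points are not. Values run from -1.13 (Mccc1) to 0.82 (Bcat2) in G609G/G609G against wt, from -0.14 to 0.33 in LCS/LCS against wt and from -1.26 (Pcca) to 0.85 (Bcat2) between the mutants.

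The direct comparison of the mutants asks how the members differ between progerin and lamin C fat. It shares its G609G/G609G arrays with the comparison against wt, and its values are given side by side with those above. Of the 10 members, 4 were called higher and 5 lower in G609G/G609G than in LCS/LCS, beside 52.1% of all probe sets, 10.3% higher and 41.8% lower. Under all 3 scalings 4 were higher and 3 lower, beside 9.93% and 20.4% of all probe sets. With quantile normalization 6 were higher and 3 lower, beside 24.7% and 24.3% of all probe sets, and with median centring 5 and 3, beside 38.5% and 23.9%. The groups did not overlap for 9 of the members, against 59.3% of all probe sets. Bcat2 was 1.80-fold higher (log2 change 0.85, SE 0.07, adjusted p = 1.96e-05), and Dbt was higher by 0.54, Bckdhb by 0.37 and Bckdha by 0.21. The Bckdha call was lost without LCS/LCS replicate 2 (0.20, adjusted p = 0.0574). Pcca was 2.39-fold lower (log2 change -1.26, SE 0.06, adjusted p = 1.18e-06), the change of Mccc1 was -1.14 and that of Pccb -0.96. Pccb was thus 1.95-fold lower than in LCS/LCS and 1.55-fold lower than in wt. Mccc2 (-0.31) and Hibadh (-0.37) were called lower as deposited and Ivd (-0.13, limma adjusted p = 0.1) was not. After quantile normalization Mccc2 (0.15) and Ivd (0.33) were called higher and Hibadh (0.03) was not called. After median centring Ivd (0.25) was called higher, and Mccc2 (0.06) and Hibadh (0.00) were not called.

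Around the members, 34 further genes of transport, neighbouring steps, cofactors and regulators were listed, and 33 were measured. In G609G/G609G against wt, 9 of them were called higher and 17 lower as deposited, beside 9.41% and 43.3% of all probe sets, and their median change was -0.22 against -0.23 over all probe sets. The balance turned with the scaling, to 17 higher and 9 lower with quantile normalization, beside 24.8% and 23.8% of all probe sets. With median centring it was 18 and 8, beside 41.4% and 21.5%. Under all 3 scalings 9 were called higher and 8 lower, beside 9.16% and 19.8% of all probe sets. Among plasma membrane carriers of large neutral amino acids, Slc43a1 rose to 10.89 ± 0.04 from 8.86 ± 0.09 in wt (log2 change 2.03, SE 0.07, adjusted p = 1.62e-07) and Slc7a8 by 1.71 (SE 0.07, adjusted p = 3.86e-07). Slc7a5, another such carrier, fell to 9.15 ± 0.08 from 10.90 ± 0.01 in wt (log2 change -1.75, SE 0.05, adjusted p = 9.26e-08), while its heavy chain partner Slc3a2 was higher by 0.30. Slc25a44, a mitochondrial carrier of branched-chain amino acids, was lower by 0.38 as deposited (adjusted p = 0.0039) but 0.05 and not called under either other scaling.

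Of 14 measured enzymes and cofactor genes of the leucine, valine and isoleucine, and propionate arms, 10 were called lower and 1 higher in G609G/G609G against wt as deposited, beside 43.3% and 9.41% of all probe sets. With quantile normalization 5 were lower and 5 higher, beside 23.8% and 24.8% of all probe sets. With median centring 4 were lower and 6 higher, beside 21.5% and 41.4%, so no common direction is settled. Under all 3 scalings 4 were lower and 1 higher, beside 19.8% and 9.16% of all probe sets. Oxct1, which activates acetoacetate, fell to 8.49 ± 0.11 from 9.87 ± 0.01 in wt (log2 change -1.38, SE 0.06, adjusted p = 6.96e-07). In the valine and isoleucine arms, 3 of 7 genes were called lower and 1 higher as deposited, against 2 lower and 4 higher under each other scaling. Hibch, the hydrolase just before Hibadh, was -0.86, Acad8, which oxidises isobutyryl-CoA, was -0.84, and Hsd17b10, an isoleucine-arm dehydrogenase, was 0.75, all called so under the 3 scalings. All 4 measured genes downstream of propionyl-CoA carboxylase, Mcee, Mmut, Mmaa and Mmab, were called lower as deposited, with a median change of -0.57, but 2 were called lower with quantile normalization, 1 lower and 1 higher with median centring, and 1 lower under all 3 scalings (Mmab, -0.83). Hlcs, the synthetase that attaches biotin to the carboxylases, was -1.37 (SE 0.09, adjusted p = 6.23e-06) and held under all 3 scalings. The biotin enzymes of fatty acid metabolism split: Acaca, the acetyl-CoA carboxylase of fatty acid synthesis, fell by 1.99 (SE 0.08, adjusted p = 4.8e-07), whereas Acacb, the isoform that acts at mitochondria, rose by 0.87. Klf15, a transcription factor known in mouse muscle and liver to drive amino acid catabolic genes, rose to 9.96 ± 0.16 from 8.15 ± 0.04 in wt (log2 change 1.81, SE 0.11, adjusted p = 3.08e-06). Hibch, Acad8, Hsd17b10, Slc3a2, Slc25a44, Mcee, Mmut, Mmaa, Mmab, Hlcs and Acacb were chosen for naming after their values were seen.

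**Figure D5:**
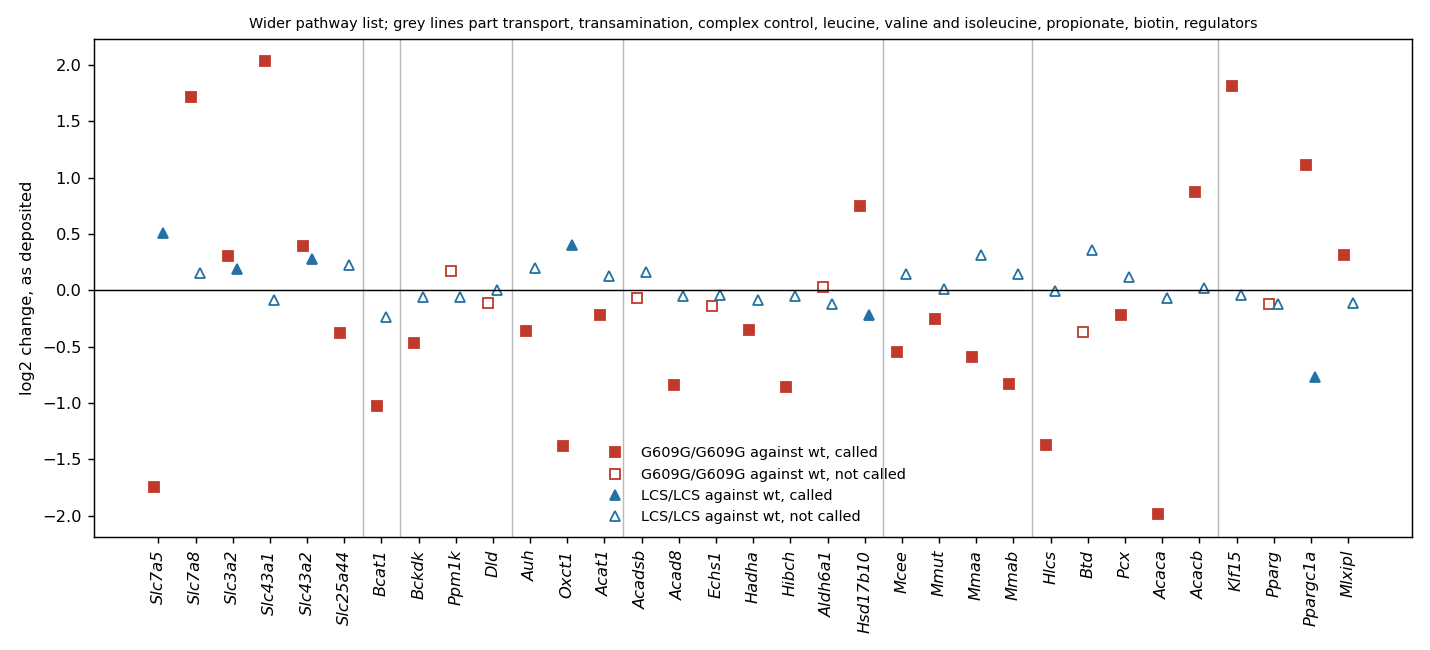
Log2 change as deposited (vertical axis) of the 33 measured genes around the members, by role, in G609G/G609G against wt (squares) and LCS/LCS against wt (triangles); filled symbols are called. G609G/G609G values run from -1.99 (Acaca) to 2.03 (Slc43a1), LCS/LCS values from -0.77 (Ppargc1a) to 0.51 (Slc7a5).

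In LCS/LCS against wt, 4 of the 33 were called higher and 2 lower as deposited, a share near the 17.2% called over all probe sets. With quantile normalization the counts were 5 and 5, beside 11.3% and 9.72% of all probe sets, and with median centring 12 and 2, beside 15.2% and 7.28%. Under all 3 scalings they were 3 and 2, beside 8.83% and 6.82% of all probe sets. The groups did not overlap for 12 genes that were higher and 7 that were lower, against 35.9% of all probe sets. Slc7a5 rose by 0.51 (SE 0.05, adjusted p = 0.00041), Oxct1 by 0.40 and Slc43a2, a further neutral amino acid carrier, by 0.28. Ppargc1a, a coactivator of mitochondrial genes, fell by 0.77 (SE 0.08, adjusted p = 0.000277) and Hsd17b10 by 0.22. Bcat1, Bckdk, Ppm1k, Dld and Klf15 were not called (adjusted p = 0.195, 0.641, 0.8, 0.98 and 0.874). Between the mutants, 8 of the 33 were called higher in G609G/G609G and 19 lower as deposited, beside 10.3% and 41.8% of all probe sets. This balance turned as well, to 17 higher and 10 lower with quantile normalization, beside 24.7% and 24.3% of all probe sets. With median centring it was 16 and 13, beside 38.5% and 23.9%. Under all 3 scalings 8 were higher and 10 lower, beside 9.93% and 20.4% of all probe sets. The change of Slc7a5 was -2.25, that of Acaca -1.93 and that of Oxct1 -1.78, while Slc43a1 was higher by 2.12 and Ppargc1a by 1.88. Klf15 was 1.85 and Bcat1 -0.79 in this comparison, and Bckdk was -0.41 as deposited without a call under all 3 scalings.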

How the data were processed

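The authors deposited 1 table of log2 signals per probe set for 9 Affymetrix gene-level arrays; the log2 scale was inferred from the range (2.46 to 13.84), since no header names it. Per the labels' protocols, total RNA from snap-frozen, powdered tissue was labelled with biotin; background correction, summarisation and scaling: not given in the sources used here. Build mm9 is named in the submitters' processing notes. Groups came from sample titles. Of 23332 probe sets, 14996 had 1 gene symbol, 1019 several and 7317 none listed; a gene was represented by its brightest probe set. limma 3.58.1 (R 4.3.3) was fitted to all 9 arrays with a mean per genotype, two-sided moderated tests and Benjamini-Hochberg adjustment over every probe set. The script was tested on simulated data. The design text names an unpaired t-test with a fold of at least 1.5, which was run as an alternative, beside other scalings, moderation, weights, filters and leaving out each array. The members and gene lists were chosen with earlier results of these data known. Named were all members, Bcat1, Bckdk, Ppm1k, Dld and Klf15. Per comparison, up to 5 genes around them with the smallest p among those called under all 3 scalings were named too. Other named genes around the members are marked. From the matrix and marker lists, Pdhb, Cs, Pdha1, Mb, Mylpf, Acta1, Ckm, Ucp1 and Cox8b were named outside this rule. Promoters came from RefSeq (GRCm38.p6), matched by symbol, and 9 of 10 members had an entry. A window had to lie just before the annotated span of its own gene. Overlap of a window with other genes was not checked. Figures used matplotlib 3.10.9, tables Python 3.11.15 and pandas 2.3.3.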

Additional observations from a re-analysis of the deposited data

How the results depend on the processing

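Of the members' 30 changes, 518 recalculated values kept direction and side of the threshold, 21 were called no longer, 10 became called and 21 changed sign. A value that changed sign was counted only there, also where its call changed, as for Ivd, Mccc2 and Hibadh. In G609G/G609G against wt, 9 members were called, 4 higher and 5 lower. The methods' t-test with its fold minimum gave 5 (2 higher, 3 lower), as did limma with a fold of at least 1.5 (5, with 2 and 3); lower calls were 3 after quantile normalization and 3 after median centring, and higher calls 7 after median centring. In G609G/G609G against LCS/LCS (9, with 4 and 5), the methods' t-test gave 4 (1 higher, 3 lower) and the fold minimum 4 (1 and 3), and lower calls were 3 after quantile normalization and 3 after median centring. In LCS/LCS against wt (1 higher, 0 lower), the count was 2 after quantile normalization (1 of them lower), 3 higher after median centring, 0 with the methods' t-test, 3 with that test after Benjamini-Hochberg adjustment, 0 with the fold minimum, 2 with trended and robust moderation and 3 with array weights. The changed calls with a fold minimum come from the added requirement; the other causes were not tested.

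Changes of sign, with quantile normalization and then median centring, were 0.35 and 0.40 for Ivd, 0.14 and 0.17 for Mccc2 and 0.06 and 0.16 for Hibadh in G609G/G609G against wt. In G609G/G609G against LCS/LCS they were 0.33 and 0.25 for Ivd, 0.15 and 0.06 for Mccc2 and 0.03 and 0.00 for Hibadh. In LCS/LCS against wt, where none of these was called, Bcat2 was 0.02 after median centring and with array weights, and -0.07 to 0.03 when 1 array was left out (above 0 without wt replicate 3 or LCS/LCS replicate 2). There Dbt was 0.00 (just below 0), Mccc1 -0.04 and Mccc2 -0.01 after quantile normalization, and Mccc1 was -0.06 to 0.04 when 1 array was left out (below 0 without wt replicate 2 or LCS/LCS replicate 1). Leaving out 1 array left the counts of called members at 9 in G609G/G609G against wt and at 1 in LCS/LCS against wt, and at 8 to 9 between the mutants. Between genotypes, correlations of deviations ran from -0.071 to 0.230 for same-numbered arrays and from -0.168 to 0.116 for the others. The sample titles give only replicate numbers, so whether a number marks a pairing or batch cannot be told from these values. With the replicate block the counts stayed at 9, 1 and 9 and no member's call changed. Low signals cannot be told from background here, but every member lay above at least 79.2% of probe sets.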

Other observations

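The sister complexes of the branched-chain ketoacid dehydrogenase and the citric acid cycle enzymes beside them gave a reference for the mitochondrial matrix. Of 9 measured genes on that list, 6 were called lower and 1 higher in G609G/G609G against wt as deposited (median -0.26). Of all probe sets 43.3% were called lower and 9.41% higher, with a median of -0.23. After quantile normalization 1 was lower and 5 higher (median 0.12), beside 23.8% and 24.8% of all probe sets (0.02). After median centring 0 were lower and 5 higher (0.17), beside 21.5% and 41.4% (0.20). The gene called in the same direction under all 3 scalings was Pdhb, the beta subunit of pyruvate dehydrogenase, at 0.30 as deposited (SE 0.11, limma adjusted p = 0.0439), 0.81 and 0.73. Cs, the citrate synthase often used as a measure of mitochondrial content, was -0.43 in the deposited values, -0.07 with quantile normalization and 0.00 with median centring. In LCS/LCS against wt, Pdha1, the alpha subunit of pyruvate dehydrogenase, was lower (log2 change -0.27, limma adjusted p = 0.00675) and called so under all 3 scalings. The other 8 were not called as deposited. Of all probe sets, 7.76% were called lower as deposited and 6.82% under all 3 scalings. With quantile normalization 2 of the 9 were lower and 0 higher, beside 9.72% and 11.3% of all probe sets. With median centring 1 was lower and 1 higher, beside 7.28% and 15.2%.

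Markers of other tissues also differed between the groups, and their part in the members' changes was not tested. Over all probe sets, 9.16% were called higher and 19.8% lower under all 3 scalings in G609G/G609G against wt. In LCS/LCS against wt these shares were 8.83% and 6.82%. As deposited, 43.3% of all probe sets were called lower in G609G/G609G and 7.76% in LCS/LCS. In G609G/G609G against wt, all 6 measured epididymal markers were called lower under all 3 scalings (median -6.69 as deposited), with a summed linear signal of 3303 to 3492 against 40347 to 41346. All 8 germ cell markers were called lower as deposited in G609G/G609G (median -1.61, 7 of them under all 3 scalings) and in LCS/LCS (median -2.50, 8 under all 3). All 5 macrophage markers were called lower in G609G/G609G as deposited (median -1.35, 4 of them under all 3 scalings), while 4 of 5 were higher in LCS/LCS under all 3 (0.35). Of 6 brown fat markers, 4 were higher and 1 lower in G609G/G609G (median 0.52), and 0 higher and 3 lower in LCS/LCS (-0.29), each of these calls under all 3 scalings. The dimmest of the 6 in G609G/G609G was Ucp1, at a mean of only 4.19, and the brightest was Cox8b, at 11.61. Whether brown fat cells were present was not tested. Of 4 liver markers, 3 were called lower in LCS/LCS under all 3 scalings (median -0.48 as deposited). In G609G/G609G 3 were lower as deposited (median -0.40), but with median centring 1 was lower and 1 higher (median 0.02), and 1 was lower under all 3 scalings.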
